A study of Mus musculus with 8 samples.

Results

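Matricellular proteins are secreted into the extracellular matrix, where they act on cells and on other matrix proteins more than they build the scaffold itself. Here 10 of their genes were followed in the embryonic mouse epididymal duct: the thrombospondins Thbs1, Thbs2, Thbs3 and Thbs4, the tenascin Tnc, the fasciclin domain proteins Postn (periostin) and Tgfbi, the spondins Spon1 and Spon2, and Sparc. They were taken by symbol from a table of 46517 genes. All 10 were found, and all 10 were among the 16469 genes that passed a filter on low counts. Thrombospondins bind integrins and CD47, and those of Thbs1 and Thbs2 also bind CD36. Periostin and tenascin C bind collagen and fibronectin, and the product of Tgfbi was named for its induction by TGF-beta. Such proteins are known from places where mesenchyme is reshaped around an epithelium.

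Total RNA was sequenced in 8 libraries of epididymal ducts, the later form of the Wolffian ducts named in the labels, taken from E18.5 mouse embryos. The 4 controls (numbered 1, 3, 4 and 6) carried 1 floxed and 1 wild-type Ptk7 allele (Ptk7+/flox). The 4 conditional knockouts by label (cKO, numbered 1, 2, 4 and 5) had the disrupted allele Xst87 opposite the floxed one (Ptk7Xst87/flox). Both groups carried T-Cre, a transgene driven by the Brachyury promoter that is active in early mesoderm, and mT/mG, a membrane reporter, so neither transgene separates them. Whether each library is 1 embryo or a pool is not stated, so p-values measure only the spread between these libraries, part of which may be technical. Total counts ranged from 24807970 to 29590547 per library.

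Ptk7, the targeted gene, stood at 189, 112.5, 313 and 169 CPM (counts scaled by library size and TMM factor) in controls 1, 3, 4 and 6. Among the cKO label it stood at 7.33, 7.59, 12.5 and 194 CPM in libraries 1, 2, 4 and 5. The library labelled Ptk7 cKO 5 thus went against its label, and all directions below compare labels, not Ptk7 levels. In edgeR its log2 fold change was -1.82 over all 8 libraries (SE 0.95, adjusted p = 0.655) and -4.42 when that library was left out (SE 0.37, adjusted p = 0.00805). Duct epithelium, mesenchyme and smooth muscle markers were all present: their summed CPM ranged over the 8 libraries from 1305 to 1837, 3931 to 4559 and 2969 to 4481. Testis and gonad markers summed to at most 12.9 CPM, and platelet markers to at most 21.3 CPM. In bulk tissue, fewer cells of a type and less RNA per cell cannot be told apart.

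Per length of exon the 10 genes spanned more than 2 orders of magnitude, and Sparc led. Levels between genes are given as CPM per kilobase of summed exon length, averaged over the 8 libraries. Sparc, which encodes a collagen-binding glycoprotein of remodelling matrix, stood at 1103 (1064 to 1141), rank 55 of the 16469 genes tested. Tgfbi (72.1) and Postn (72.1) came next, level only in the mean over the 8 libraries. Tgfbi was the higher in 4 of 8 libraries, control 4 and those labelled cKO 1, 2 and 4. In control the mean of Postn was 70.3 and that of Tgfbi 61.0. In the cKO label they were 73.8 and 83.2. In CPM, before division by length, Postn was higher, with means of 612 in control and 642 in the cKO label. Those of Tgfbi were 163.5 and 223. The length counts every annotated exon, used here or not (8702 bases for Postn, 2678 for Tgfbi). Orders and shares per length therefore depend on the annotation. Thbs2 followed at 49.99, below Postn in all 8 libraries. It was above Tgfbi in control 1 (58.5 against 57.4) and control 3 (62.7 against 61.6). Spon2 stood at 18.1, with its range apart from that of Thbs2. Thbs1 (9.37), Thbs3 (8.62) and Tnc (7.43) had overlapping ranges, and Thbs1 exceeded Thbs3 in 3 of 8 libraries only. Spon1 (5.29) was below Tnc in 7 of 8 libraries. Thbs4 had the lowest mean at 3.10 (2.15 to 5.31) and was below Spon1 in 7 of 8 libraries.

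**Figure D1:**
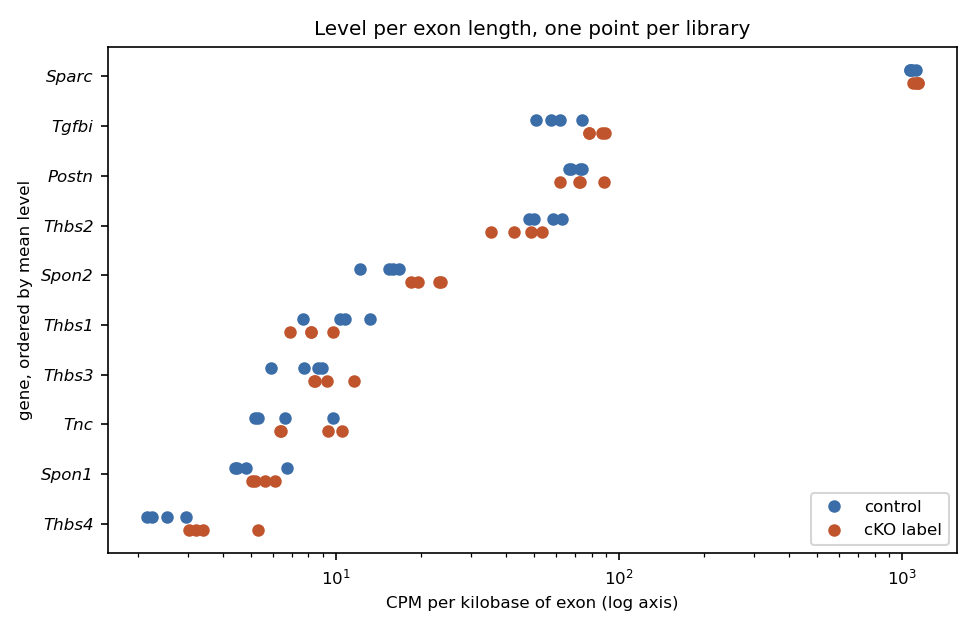
CPM per kilobase of exon (log axis) for each member, 1 point per library, controls in blue and libraries labelled cKO in orange, ordered by mean level. Sparc stands apart at 1064 to 1141, and Thbs4 has the lowest mean, with a range of 2.15 to 5.31.

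Sparc also varied least. Its coefficient of variation was 2.29% in control and 1.96% in the cKO label, and it made up 82.2% ± 1.49 of the per-length level of the 10 genes in control and 81.3% ± 0.76 in the cKO label (SD, n = 4 each). Tnc varied most in control (31.7%). The lowest count of any member in a library was 203, for Thbs4, where counting error alone is 7.02%. For the other 9 genes the lowest count gave a counting error of at most 3.42%, and in all 10 genes the coefficient of variation in control (2.29% to 31.7%) was larger than the counting error of the same gene.

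Each of the 10 genes was compared between the cKO label and control. Tgfbi, Spon2 and Thbs4 were higher in all 4 libraries labelled cKO than in every control, with estimates of 1.36-fold, 1.41-fold and 1.51-fold. Thbs1 and Thbs2 had estimates of 0.79-fold and 0.82-fold, and the groups overlapped. Over all genes, none of the 10 passed edgeR's quasi-likelihood test at an adjusted p of 0.05, and neither did any other gene (0 called, percent called 0%). DESeq2 called 2 of the 10, Spon2 and Tgfbi, both higher, where it called 184 of 16257 genes (1.13%), 57 of them higher (0.351%) and 127 lower (0.781%). At an unadjusted p under 0.05 in edgeR, 3 members were higher and 1 was lower, against 1379 of all genes tested (8.37%), 577 higher (3.5%) and 802 lower (4.87%). The groups did not overlap in 3 of the 10, all higher, against 5.76% of all genes in either direction, 2.65% higher and 3.11% lower. Without the library labelled cKO 5, 5 of the 10 had an unadjusted p under 0.05 in edgeR (8.74% of all genes) and 0 passed after adjustment (0.00599%), while DESeq2 again called Spon2 and Tgfbi (1.1%). The median log2 fold change of the 10 was 0.19, and 8 were above 0. Over all genes tested the median was 0.01, and 51.4% were above 0. The 10 genes were picked with earlier results of these libraries known, so these shares are descriptions.

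**Figure D2:**
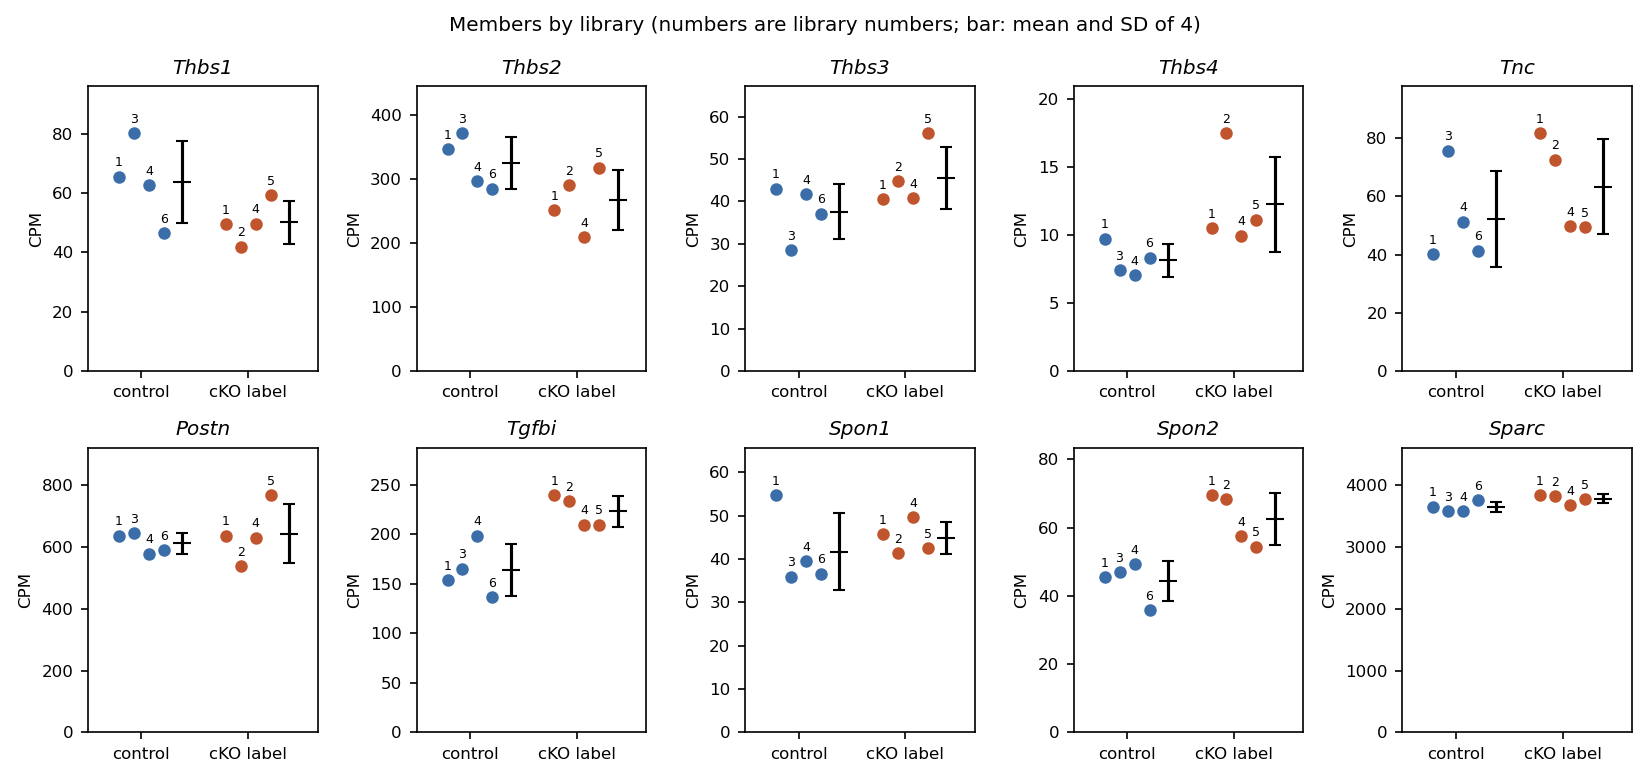
CPM of each member in each library (points, with the library number), controls in blue and libraries labelled cKO in orange; bars show the mean and SD of the 4 libraries of a group. Tgfbi, Spon2 and Thbs4 do not overlap between the groups, and the other 7 genes do.

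Spon2 encodes spondin 2 (mindin), a small secreted spondin that binds integrins and microbial surfaces (ENSMUSG00000037379; GRCm38 chromosome 5, 33198184 to 33218455, minus strand). It stood at 45.4, 46.9, 49.2 and 35.9 CPM in controls 1, 3, 4 and 6, and at 69.5, 68.3, 57.4 and 54.4 CPM in the libraries labelled cKO 1, 2, 4 and 5. The groups did not overlap, and the library labelled cKO 5, with Ptk7 at the control level, was the lowest of its group but above every control. The means were 44.3 ± 5.87 and 62.4 ± 7.63 CPM (SD, n = 4 each), with a log2 fold change of 0.49 (SE 0.12, edgeR adjusted p = 0.218, DESeq2 adjusted p = 0.0161). Without the library labelled cKO 5 the log2 fold change was 0.55 (SE 0.12, edgeR adjusted p = 0.224), and DESeq2 again called it (adjusted p = 0.00857).

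Tgfbi encodes a secreted fasciclin domain protein that binds collagen and integrins (ENSMUSG00000035493; GRCm38 chromosome 13, 56609603 to 56639339, plus strand). It stood at 154, 165, 199 and 137 CPM in controls 1, 3, 4 and 6, and at 239, 233, 209.5 and 209.6 CPM in the libraries labelled cKO 1, 2, 4 and 5. Control 4 was the highest control and lay below every library labelled cKO, including cKO 5. The means were 163.5 ± 26.2 and 223 ± 15.7 CPM (SD, n = 4 each), with a log2 fold change of 0.45 (SE 0.11, edgeR adjusted p = 0.238, DESeq2 adjusted p = 0.0220). Without the library labelled cKO 5 it was 0.48 (SE 0.12, edgeR adjusted p = 0.277, DESeq2 adjusted p = 0.0368).

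Tgfbi and Spon2 varied together from library to library. By a rule fixed on likeness of log2 CPM over the 8 libraries, Spon2 was the gene most like Tgfbi among 11390 candidates (Pearson r = 0.96, Spearman rho = 0.98). Hes1, a transcription factor downstream of Notch, was the most like Spon2 (r = 0.97), with Tgfbi next. Hes1 stood at 26.2 ± 1.41 CPM in control and 30.4 ± 2.15 in the cKO label (SD, n = 4 each), an edgeR log2 fold change of 0.22 (adjusted p = 0.497). Part of the likeness of Tgfbi and Spon2 is the difference between labels that both show. About their group means r was 0.86, and without controls 1 and 6, the 2 libraries farthest from the median of Tgfbi, it was 0.92 (n = 6). The points share their libraries and scaling factors.

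**Figure D3:**
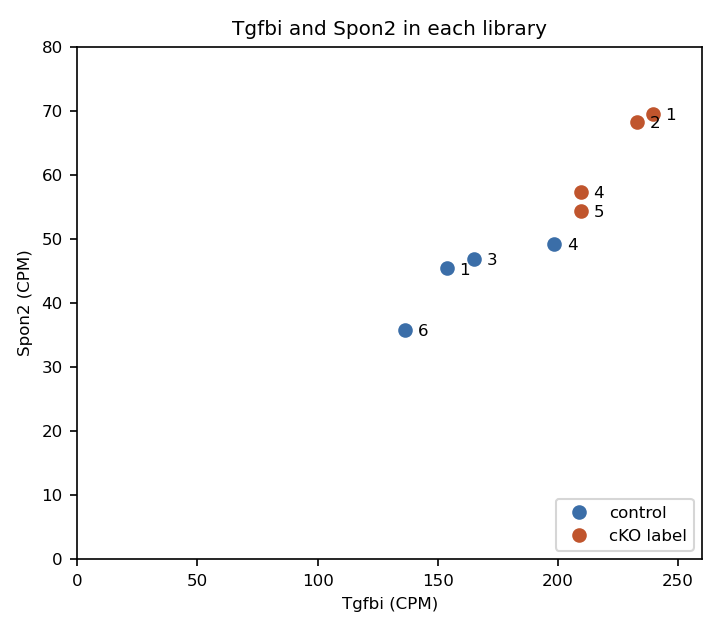
Spon2 against Tgfbi in CPM, 1 point per library with its number, controls in blue and libraries labelled cKO in orange. Control 6 is lowest in both genes (137 and 35.9 CPM) and the library labelled cKO 1 is highest in both (239 and 69.5 CPM).

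Mesothelium markers were also at higher levels in the cKO label. Their summed CPM was 935, 956, 1009 and 1037 in controls 1, 3, 4 and 6, and 1087, 1189, 1189 and 1269 in the libraries labelled cKO 1, 2, 4 and 5. The groups did not overlap. Control 6, lowest in both Tgfbi and Spon2, had the highest sum of the controls. The library labelled cKO 1, highest in both genes, had the lowest sum of its group. Of the 10 markers tested, 5 were higher at an unadjusted p under 0.05 in edgeR and none lower, against 3.5% and 4.87% of all genes. DESeq2 called 4 of the 10, against 1.13% of all genes. Myrf, a transcription factor of that lining, had the smallest p of the list (107 ± 5.91 CPM in control and 163 ± 18.6 in the cKO label, SD, n = 4 each). Its adjusted p was 0.161 in edgeR and 2.2e-05 in DESeq2. Mesenchyme markers, with 6 higher and 1 lower of 19 tested, summed to 3931 to 4335 and 4226 to 4559 CPM, and DESeq2 called 2 of them. The part of either in the levels of Tgfbi and Spon2 was not tested.

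None of the 4 thrombospondins passed adjustment in edgeR or DESeq2, and their estimates were above 0 for Thbs3 and Thbs4 and below 0 for Thbs1 and Thbs2. Thbs1 and Thbs2 are the trimeric, anti-angiogenic pair with type 1 repeats. Thbs3 and Thbs4 belong to the pentameric subgroup, which lacks those repeats, and Thbs4 is known from tendon and muscle.

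Thbs4 (ENSMUSG00000021702; GRCm38 chromosome 13, 92751590 to 92794818, minus strand) was low throughout. It stood at 9.72, 7.39, 7.06 and 8.35 CPM in controls 1, 3, 4 and 6, and at 10.5, 17.5, 9.96 and 11.1 CPM in the libraries labelled cKO 1, 2, 4 and 5. No control reached the cKO label, though control 1 lay just below the library labelled cKO 4, and the library labelled cKO 2 stood far above the rest. The log2 fold change was 0.60 (SE 0.19, edgeR adjusted p = 0.382, DESeq2 adjusted p = 0.124). Without the library labelled cKO 2 it was 0.37. The relative of Thbs4 in cartilage, Comp, had at most 2 counts in a library, and cartilage and tendon markers summed to 61.8 to 103.2 CPM in control and 81.8 to 110.5 in the cKO label.

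Thbs2 (ENSMUSG00000023885; GRCm38 chromosome 17, 14665500 to 14694262, minus strand) was the main thrombospondin of the tissue. It stood at 346, 371, 297 and 285 CPM in controls 1, 3, 4 and 6, and at 251, 291, 209 and 318 CPM in the libraries labelled cKO 1, 2, 4 and 5. The libraries labelled cKO 1 and 4 were below every control, and those labelled cKO 2 and 5 were within the control range. Its log2 fold change was -0.28 (SE 0.13, 95% interval -0.58 to 0.01, edgeR adjusted p = 0.622). Leaving out 1 library gave -0.18, without the library labelled cKO 4, to -0.38, without the one labelled cKO 5, and the replicate block gave -0.48. The genes most like Thbs2 over the 8 libraries were Ltbp2, a latent TGF-beta binding protein (r = 0.99), and Actg2, the smooth muscle gamma actin (r = 0.98). Actg2 stood at 44.7 ± 9.25 CPM in control and 27.6 ± 8.95 in the cKO label (SD, n = 4 each). Smooth muscle markers as a list summed to 3736 to 4481 CPM in control and 2969 to 3738 in the cKO label. At an unadjusted p under 0.05 in edgeR, 1 was higher and 8 were lower of 15, against 3.5% and 4.87% of all genes. Casq2, a calcium store protein of muscle, had the smallest p of that list, with an edgeR log2 fold change of -0.66 (adjusted p = 0.286). It was the 1 gene of the 15 that DESeq2 called (adjusted p = 0.0298), against 1.13% of all genes. The part of smooth muscle in the level of Thbs2 was not tested.

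Thbs1 (ENSMUSG00000040152; GRCm38 chromosome 2, 118111876 to 118127133, plus strand), whose product can activate latent TGF-beta, stood at 65.4, 80.1, 62.7 and 46.5 CPM in controls 1, 3, 4 and 6. The libraries labelled cKO 1, 2, 4 and 5 had 49.5, 41.9, 49.7 and 59.3 CPM. The groups overlapped, with control 6 below 3 of the 4 libraries labelled cKO. The estimate was a log2 fold change of -0.35 (SE 0.15, unadjusted p = 0.0456, edgeR adjusted p = 0.589). It was -0.22 when control 3, the highest library, was left out. Thbs1 ran against Sparc over the 8 libraries (r = -0.78, the lowest of 45 pairs of members). Thbs1 is also a gene of the immediate early response. Of 22 immediate early genes tested, none was higher and 2 were lower at an unadjusted p under 0.05 in edgeR (9.09%, against 8.37% of all genes). The median log2 fold change of the 22 was 0.09, and 17 were above 0. The 2 lower genes were Egr1 (log2 fold change -0.41, edgeR adjusted p = 0.562) and Myc (-0.27, edgeR adjusted p = 0.596).

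Thbs3 (ENSMUSG00000028047; GRCm38 chromosome 3, 89215180 to 89226837, plus strand) stood at 43.0, 28.5, 41.7 and 37.1 CPM in controls 1, 3, 4 and 6, and at 40.5, 44.8, 40.8 and 56.0 CPM in the libraries labelled cKO 1, 2, 4 and 5. Control 3 was lowest and the library labelled cKO 5 highest, and the other 6 lay close together. On the log2 scale the fold change was 0.28 (SE 0.14, edgeR adjusted p = 0.652). Leaving out the library labelled cKO 5 gave 0.16, leaving out control 3 gave 0.17, and the replicate block gave -0.059. Control 3 also had the highest mitochondrial share of counts (3.47%) and the library labelled cKO 5 the lowest (1.82%), with 2.37% to 2.64% in the others. The part of that in Thbs3 was not tested. Exons of Thbs3 share 318 bases with those of Mtx1 on the opposite strand, and without a stated strand setting reads there cannot be told apart.

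As a share of the 4 thrombospondins per length, Thbs2 made up 70.4% to 74.6% in control and 64.2% to 69.5% in the cKO label. Thbs3 made up 7.04% to 12.1% and 13.2% to 15.4%, and Thbs4 made up 2.67% to 3.84% and 4.31% to 7.53%. These 3 shares did not overlap between the groups, while that of Thbs1 did (11.6% to 15.7% and 9.77% to 14.9%). In CPM, only Thbs4 of the 4 genes did not overlap between the groups. Such shares do not depend on the scaling of libraries, they sum to a fixed total, and they were looked at after the levels were known. The 3 shares are therefore not separate observations. How often such shares do not overlap for other genes was not counted.

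**Figure D4:**
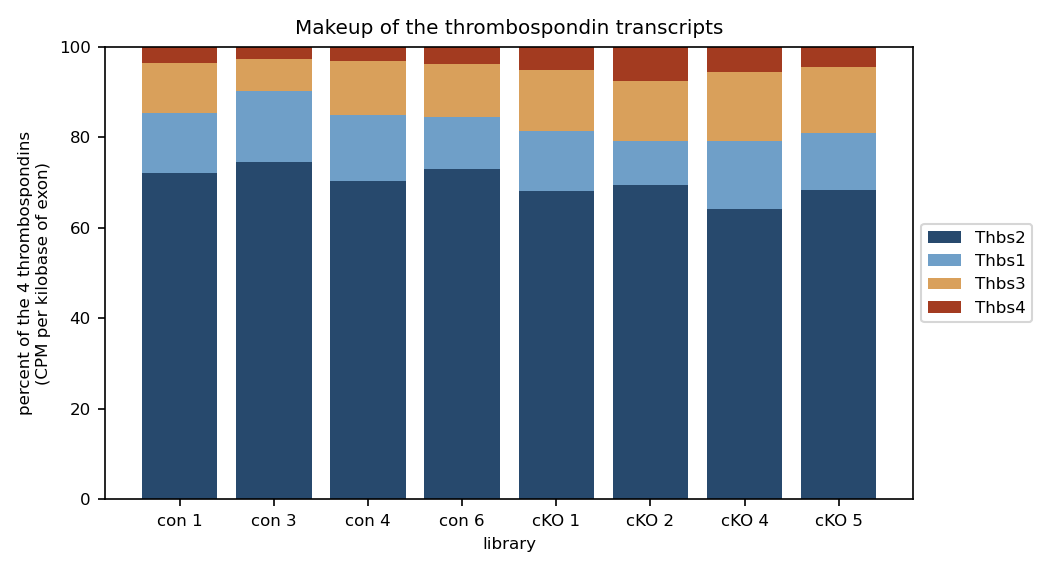
Share of each thrombospondin in the summed CPM per kilobase of exon of the 4 genes, 1 bar per library. Thbs2 is the largest part in every library and is smaller in the libraries labelled cKO (64.2% to 69.5%) than in control (70.4% to 74.6%).

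Promoter sequences from RefSeq (GRCm38.p6), 250 bases before to 50 after the start site, were matched for 7 of the 10 genes, in 9 windows. Those of Tgfbi and Thbs4, higher in the cKO label, and of Thbs2, with the opposite estimate, are shown to set genes with estimates of different sign side by side. Capitals mark matches on either strand to 7 motifs: the TATA box with the letters TATAAA, the CCAAT box by its name, and the SMAD-binding letters CAGAC. The others were the palindromic SMAD box GTCTAGAC, the AP-1 site with the letters TGANTCA, the TEAD site with the letters GGAATG, and the GC box with the letters GGGCGG.
Tgfbi, chr13:56609336-56609635, plus strand: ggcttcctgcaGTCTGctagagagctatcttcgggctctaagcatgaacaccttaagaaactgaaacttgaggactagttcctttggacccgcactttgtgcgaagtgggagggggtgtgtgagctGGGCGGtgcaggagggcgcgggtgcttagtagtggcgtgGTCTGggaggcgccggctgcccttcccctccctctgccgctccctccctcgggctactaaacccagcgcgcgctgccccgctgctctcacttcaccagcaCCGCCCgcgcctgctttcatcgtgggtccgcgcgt
Thbs4, chr13:92794769-92795068, minus strand: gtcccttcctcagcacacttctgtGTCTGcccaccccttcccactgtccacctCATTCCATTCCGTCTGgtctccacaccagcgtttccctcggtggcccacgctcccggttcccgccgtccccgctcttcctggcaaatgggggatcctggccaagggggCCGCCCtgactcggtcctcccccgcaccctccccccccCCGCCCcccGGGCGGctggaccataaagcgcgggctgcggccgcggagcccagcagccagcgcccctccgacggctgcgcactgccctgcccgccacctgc
Thbs2, chr17:14694213-14694512, minus strand: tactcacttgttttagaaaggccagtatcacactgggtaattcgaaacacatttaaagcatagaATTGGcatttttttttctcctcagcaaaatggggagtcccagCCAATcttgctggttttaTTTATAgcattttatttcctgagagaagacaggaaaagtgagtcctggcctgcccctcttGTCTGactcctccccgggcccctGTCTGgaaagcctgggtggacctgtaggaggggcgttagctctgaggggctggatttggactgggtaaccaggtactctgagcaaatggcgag

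The letters CAGAC, known from SMAD binding, occur on the reverse strand at -239 and -85 from the start in Tgfbi, at -226 and -186 in Thbs4, and at -66 and -43 in Thbs2. The estimate for Thbs2 had the other sign from those of Tgfbi and Thbs4, but its groups overlapped (edgeR log2 fold change -0.28, SE 0.13, adjusted p = 0.622). The part of these letters in the direction of any gene was not tested. Of the 7 member genes, 6 hold them, against 53.2% of all 27025 genes with windows of this length. GGAATG, known from TEAD binding, matched in Thbs4 only, at -197 and -192 on the reverse strand, and 16.6% of all these genes hold it. These 2 matches overlap by 1 base and end next to a CAGAC match. Counted by gene, since the 2 windows of Tnc overlap, TATAAA matched in 3 of the 7 member genes (15.7% of all genes) and the GC box in 4 (38.2%). TATAAA lay at -26 in Postn, at -126 or -205 by start site in Tnc, and at -126 on the reverse strand in Thbs2. The CCAAT box matched in 3 (41.1%), and TGANTCA (8.97%) and GTCTAGAC (0.248%) in none. A match is a description of letters, not of binding.

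Tnc, Postn, Spon1 and Sparc had no difference that passed a test. Tnc (ENSMUSG00000028364; GRCm38 chromosome 4, 63959785 to 64047015, minus strand) encodes tenascin C, an adhesion-modulating hexamer of budding mesenchyme. It stood at 40.2, 75.7, 51.3 and 41.3 CPM in controls 1, 3, 4 and 6, and at 81.6, 72.6, 49.8 and 49.4 CPM in the libraries labelled cKO 1, 2, 4 and 5. Control 3 and the libraries labelled cKO 1 and 2 formed a high set that crossed the labels. The log2 fold change was 0.28 (SE 0.22, 95% interval -0.21 to 0.77, edgeR adjusted p = 0.754). When 1 library was left out it ranged from 0.14, without the library labelled cKO 1, to 0.52, without control 3, and it was 0.18 without control 1 or control 6. Rnps1, a splicing and exon junction protein, was among the 2 genes most like Tnc (r = 0.95) and had 47.2, 50.7 and 48.8 CPM in those 3 libraries. In the other 5 it had 26.4 to 30.9 CPM.

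Postn (ENSMUSG00000027750; GRCm38 chromosome 3, 54361109 to 54391037, plus strand), whose product is secreted by fibroblasts and promotes collagen cross-linking, stood at 636, 645, 577 and 589 CPM in controls 1, 3, 4 and 6. The libraries labelled cKO 1, 2, 4 and 5 had 636, 536, 629.6 and 768 CPM. The library labelled cKO 5 was the highest and the one labelled cKO 2 the lowest of all 8. Its log2 fold change was 0.07 (SE 0.10, 95% interval -0.16 to 0.30, edgeR adjusted p = 0.867), and it was -0.03 without the library labelled cKO 5, 0.04 without control 4 and 0.15 without the library labelled cKO 2.

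Spon1 (ENSMUSG00000038156; GRCm38 chromosome 7, 113765998 to 114043370, plus strand) encodes F-spondin, known from axon guidance. It stood at 54.8, 35.9, 39.5 and 36.6 CPM in controls 1, 3, 4 and 6, and at 45.8, 41.4, 49.6 and 42.5 CPM in the libraries labelled cKO 1, 2, 4 and 5. Control 1 was the highest of all 8 and the other 3 controls were the lowest. The estimate was a log2 fold change of 0.11 (SE 0.13, 95% interval -0.19 to 0.40, edgeR adjusted p = 0.840). It was 0.26 without control 1, and 0.04 to 0.05 without control 3, control 6 or the library labelled cKO 4. Whether Spon1 and Spon2 differ in their change was not tested.

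Sparc (ENSMUSG00000018593; GRCm38 chromosome 11, 55394500 to 55420080, minus strand) stood at 3657, 3586, 3582 and 3761 CPM in controls 1, 3, 4 and 6, and at 3843, 3825, 3677 and 3778 CPM in the libraries labelled cKO 1, 2, 4 and 5. Control 6 and the library labelled cKO 4 kept the groups from separating. On the log2 scale the fold change was 0.05 (SE 0.06, edgeR adjusted p = 0.834), with a 95% interval of -0.09 to 0.19.

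**Figure D5:**
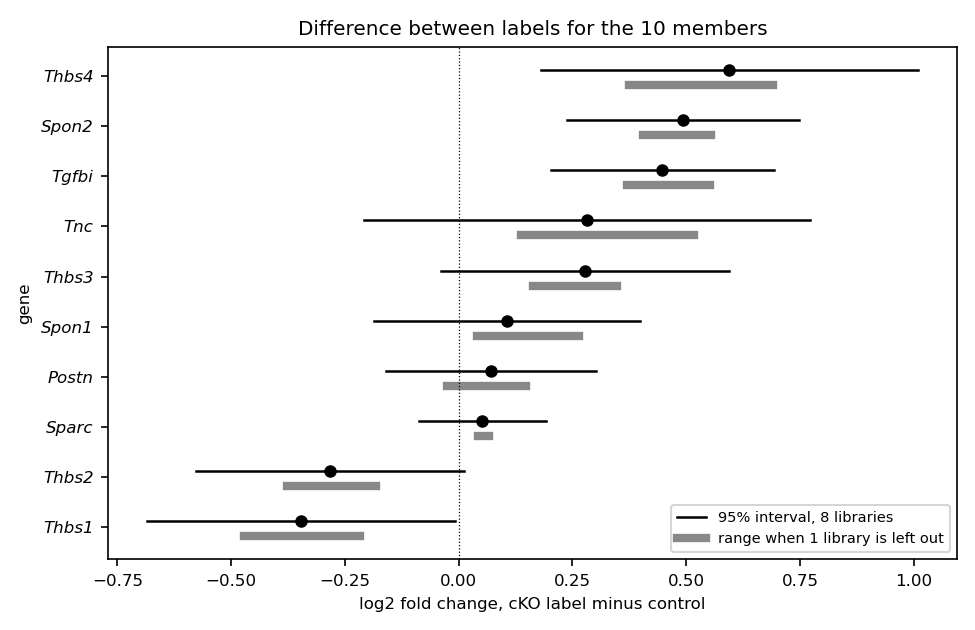
Log2 fold change of the cKO label against control for each member (point) with its 95% interval from edgeR over 8 libraries (black line), and the range of the estimate when each library in turn is left out (grey bar). The intervals of Thbs4, Spon2 and Tgfbi lie above 0 and that of Thbs1 below it, before any adjustment, and the left-out range of Postn crosses 0.

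None of the genes listed around these members passed after adjustment in edgeR, where no gene did, or in DESeq2. At an unadjusted p under 0.05 in edgeR the lists held 0% to 17.4%, against 8.37% of all genes tested. Of the 15 tested relatives of thrombospondins, tenascins, SPARC and spondins, 0 were higher and 0 lower by that measure (median log2 fold change 0.09). Rspo3, a Wnt-enhancing R-spondin, had the smallest p among them (106 ± 10.3 CPM in control, 120.3 ± 19.0 in the cKO label), followed by the scavenger receptor Stab1 (43.9 ± 8.88 and 52.4 ± 10.8). Of 14 CCN and other matricellular genes 0 were higher and 0 lower (median log2 fold change -0.015). Ccn1, a secreted protein that binds integrins, was at 43.7 ± 8.64 CPM in control and 34.6 ± 7.04 in the cKO label, and Spp1, which encodes osteopontin, at 21.4 ± 6.32 and 28.4 ± 8.49. All values after ± are SDs with n = 4 each.

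Receptors of these proteins gave 1 higher and 2 lower of 24 tested (12.5%, against 8.37% of all genes). Itga4, an integrin chain that binds fibronectin, stood at 76.0 ± 9.84 CPM in control and 57.0 ± 7.67 in the cKO label (SD, n = 4 each; log2 fold change -0.41, edgeR adjusted p = 0.300). Cntn1, a neuronal adhesion receptor that binds tenascins, stood at 3.52 ± 0.82 and 5.72 ± 2.07 CPM (log2 fold change 0.70, edgeR adjusted p = 0.503). Neuron and Schwann cell markers summed to 183 to 219 CPM in control and 208 to 263 in the cKO label. Of 10 tested, 3 were higher (3.5% of all genes) and none lower, and the part of these markers in Cntn1 was not tested. Stmn2, a neuronal microtubule regulator, had the smallest p of that list (32.6 ± 4.54 and 50.6 ± 16.9 CPM).

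In the TGF-beta pathway, which bears on Tgfbi and Thbs1, 1 gene was higher and 3 were lower of 23 tested (17.4%, against 8.37% of all genes). The receptor Tgfbr1 stood at 181 to 202 CPM in control and 154 to 169.9 in the cKO label (log2 fold change -0.22, edgeR adjusted p = 0.379). The ligand Tgfb3 stood at 127 to 131 CPM in control and 138 to 171 in the cKO label (0.21, edgeR adjusted p = 0.508). Neither pair of ranges overlapped, as for 5.76% of all genes tested, and both genes were chosen here by their small p. The groups did not overlap for Skil of the same list either (76.7 ± 7.25 and 67.4 ± 2.77 CPM, SD, n = 4 each). Matrix partners such as collagens and cross-linking enzymes had 0 higher and 0 lower of 32 tested and a median log2 fold change of 0.07. The smallest p among them belonged to the lysyl oxidase relatives Loxl3 (39.1 ± 6.79 and 46.8 ± 4.60 CPM) and Loxl1 (242 ± 43.4 and 293 ± 42.4 CPM, SD, n = 4 each).

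The remaining markers were counted in the same way, beside 3.5% higher and 4.87% lower over all genes tested. DESeq2 called 1.13% of all genes. Duct epithelium had 1 higher and 13 lower of 23 tested (60.9%, against 8.37% of all genes), and DESeq2 called 4 of the 23. Its summed level was 1586 to 1807 CPM in control and 1305 to 1837 in the cKO label. Erythroid markers had 2 higher and none lower of 7, with 1 called by DESeq2, and summed to 795 to 2268 and 1363 to 3966 CPM. Testis and gonad markers had 0 higher and 2 lower of 5, and macrophage and leukocyte markers 1 higher of 12. Endothelium (14), platelet and megakaryocyte (4) and cartilage and tendon (6) had none in either direction.

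Other genes were closest to the remaining members by the same likeness rule. They were Reep3 (r = 0.98) and Sec24b (0.97) for Thbs1, and Tcof1 and Aebp1 (both 0.99) for Thbs3. For Thbs4 they were Psme1 (0.94) and Cnpy4 (0.93), and for Postn Frmd6 and Ms4a6d (both 0.94). For Sparc they were Nob1 (0.96) and Chmp1a (0.95), and for Spon1 Ercc1 and Ythdc1 (both 0.89). Each is the highest or next highest of 11390 values over 8 libraries, and nothing on shared function or control is drawn from it.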

How the data were processed

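Total RNA of E18.5 mouse epididymal ducts was sequenced in 4 control and 4 cKO-labelled libraries. STAR, featureCounts and GRCm38 are named per the submitters' processing notes; versions, annotation release, strand setting and treatment of multi-mapping reads: not given in the sources used here. For each gene and library the authors deposited a raw count, not normalized, and a summed exon length per gene as another column, used here only for levels per length. Symbols were matched by Ensembl identifier for 46005 of 46517 genes, and 7 of the 10 members have the span of GENCODE M21.

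The test was run in edgeR 4.0.16 under R 4.3.3: TMM factors, filterByExpr (16469 genes), quasi-likelihood F test on group over 8 libraries, and Benjamini-Hochberg adjustment over all genes at 0.05. The SE is the size of the log2 fold change divided by the square root of F, and 95% intervals use it. Alternatives were RLE or upper-quartile factors, other low-count filters, DESeq2 1.42.0, limma 3.58.1 voom, a replicate block, and leaving out each library. Counting errors cover counting only. The code was tested on simulated data. Figures used matplotlib 3.10.9.

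The members and lists were chosen with earlier results of these data known. Named were the members, Ptk7, the 2 genes with the smallest p in each pathway list and the 1 in each marker list, and the 2 genes most like each member (log2 CPM, prior count 2, mean CPM at least 5, no predicted names). Not every gene so named is described. One gene of the pathway lists is not reported here and was left out of its list. Marker lists covered duct epithelium, mesenchyme, smooth muscle, mesothelium, endothelium, erythroid cells, platelets and megakaryocytes, macrophages and leukocytes, neurons and Schwann cells, cartilage and tendon, and testis and gonad. Pathway lists covered relatives of the members, CCN and other matricellular genes, receptors, matrix partners, TGF-beta genes and immediate early genes. Comp is a relative named after its value was seen, as were Skil, Mtx1 for its overlap with Thbs3 and the thrombospondin shares.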

Additional observations from a re-analysis of the deposited data

Results flagged for a closer look

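Of 20 groups of 4 libraries examined (10 genes in each label), 1 held a library far from the others: Thbs4 in the library labelled cKO 2, at 17.5 CPM, where the next highest of its group had 11.1 CPM. The gap was 0.845 of the group's range, above Dixon's 95% limit for 4 samples. Chance flags about 1 in 20 such groups.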

How the results depend on the processing

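Spon2, Tgfbi, Thbs4, Tnc, Spon1, Sparc, Thbs1 and Thbs2 kept their direction in all 17 alternative settings run. Spon2 ranged from 0.40 to 0.61, Tgfbi from 0.36 to 0.55 and Thbs4 from 0.30 to 0.69 on the log2 scale, and Spon2 and Tgfbi had an unadjusted p under 0.05 in all 17. Only DESeq2 called members over all genes: 2 (Spon2 and Tgfbi), and again 2 without the library labelled cKO 5. The number of members at an unadjusted p under 0.05 was 3 to 5 when 1 library was left out, with none called after adjustment (0 in each such fit). Over all genes, calls numbered 1 with no low-count filter, 184 with DESeq2 and 177 with DESeq2 without the library labelled cKO 5. There were 7 with voom without that library, 7 under the replicate block, and 0 to 2 when 1 library was left out of edgeR. Postn ranged from -0.026 to 0.15 when 1 library was left out. It changed sign without the library labelled cKO 5, to -0.026 in edgeR, -0.025 in DESeq2 and -0.035 in voom. In voom without it Stab1 (-0.018) and Pf4 (-0.066) also did. The replicate block could use only the 4 libraries whose number occurs in both groups (1 and 4). Under it Thbs3 (-0.059), Spp1 (-0.16), Loxl1 (-0.012) and Pf4 (-0.0077) changed sign, and 4 members had an unadjusted p under 0.05, as without it, with none called. The numbers are not stated to pair the libraries, so the main test used no pairing. Deviations from the group means correlated at -0.092 for the libraries numbered 1 and 0.023 for those numbered 4. Pairs of unlike number ranged from -0.113 to 0.154, so these values cannot decide whether the libraries are paired. The cause of the changes of sign was not tested. Before adjustment, the 95% intervals of Sparc, Postn, Spon1, Tnc, Thbs2 and Thbs3 include 0. Thbs2 (-0.48) and Thbs4 (0.30) moved by over 1.5 times under the replicate block, as did Tnc (0.49) and Spon1 (0.036). In voom, Tnc was 0.54, and 0.66 without the library labelled cKO 5, Thbs3 was 0.16 and 0.088, and Spon1 was 0.030 and 0.040.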
